A study of Mus musculus with 14 samples.

Results

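The genes described here encode the oxidative phosphorylation system of mouse hippocampal tissue, which was either enzymatically dissociated or homogenised directly. They were chosen by name from a table of 22485 genes: all symbols that begin with mt-, the Nduf subunit series, Sdha to Sdhd, and those that begin with Uqcr, with Cox4 to Cox8 or with Atp5. This gave 97 genes (0.431% of the table), of which 13 lie in the mitochondrial genome and 84 in the nucleus. By symbol, complex I has 7 mitochondrial and 37 nuclear members, complex II 0 and 4, complex III 1 and 8, complex IV 3 and 18, and complex V 2 and 17. Ndufa4 was grouped here with complex I by its symbol, although it is now assigned to complex IV. Atp5sl was grouped with complex V by its symbol, although the GENCODE M21 annotation names it Dmac2.

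Oxidative phosphorylation couples the transfer of electrons through complexes I to IV of the inner mitochondrial membrane to proton pumping, and complex V, the ATP synthase, uses the proton gradient to make ATP. Complex II is built from nuclear genes alone, while the other complexes join subunits made inside the mitochondrion to imported ones. The mitochondrial genome is transcribed as long precursors that are cut into single RNAs, so its genes do not have separate promoters. Neurons depend heavily on this pathway.

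There were 7 dissociated libraries (3 of CA1, 2 of CA3 and 2 of the dentate gyrus, DG) and 7 control libraries with the same numbers per region. All came from C57BL/6 tissue of wild-type genotype and from 1 mouse, according to the authors' sample table, so the p-values rest on variation among samples of that animal alone. Dissociated tissue had been kept for 75 min at room temperature in artificial cerebrospinal fluid containing 1 mg/ml pronase, a protease mixture, followed by vortexing, centrifugation and trituration in fluid that held 1% FBS. Control tissue went straight into the RNA isolation. The study compared the 2 preparations in each region.

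Total estimated counts ranged from 65887 to 4782767 in dissociated libraries and from 1285654 to 6646655 in control libraries. In 3 dissociated libraries the total was under 500000: CA1 replicate 2 had 135065, CA1 replicate 3 had 300812 and DG replicate 3 had 65887. The tested nuclear members had a median of 13, 18.5 and 4 counts in these 3 libraries, against 109.5 to 453 in the control libraries. The regional labels were checked against marker genes. Markers of dentate granule cells had a median log2 fold change of -5.21 in CA1 over DG and -4.12 in CA3 over DG, and CA1 pyramidal markers had 4.57 in CA1 over DG and 0.59 in CA1 over CA3. The CA3 pyramidal markers had a median of only 0.18 in CA3 over DG.

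The markers of 3 libraries went against their labels. CA1 dissociated replicate 3 had a summed 62.5 CPM of the 6 CA1 pyramidal markers, under the 2 DG controls (95.8 and 82.5 CPM), while the other 5 CA1 libraries had 1834.6 to 2635.2 CPM, and its CA3 pyramidal markers were the highest of all libraries (3011.3 CPM). CA3 dissociated replicate 1 and CA3 control replicate 1 had 1638.1 and 2025 CPM of CA1 markers, above their own CA3 markers at 789.9 and 816.3 CPM. CPM here are counts divided by a library size scaled with TMM. In the DG libraries CA3 markers reached up to 2358.3 CPM, so these markers do not separate CA3 from DG. The samples keep their labels here. The main fitted medians and calls are also given without the 3 libraries, an alternative chosen after these values were seen. Counts of non-overlap, shares of counts, ratios, length correlations and the interaction are given only with them.

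The 13 mitochondrial genes are packed closely, which bears on how reads can be assigned to them. Of these genes 12 lie on the + strand of the annotation (GRCm38, GENCODE M21) and mt-Nd6 on the other. mt-Atp8 (chrM:7766-7969) and mt-Atp6 (chrM:7927-8607) share 43 bases, and mt-Nd4l (chrM:9877-10173) and mt-Nd4 (chrM:10167-11544) share 7 bases. Each shared stretch runs from the start codon of the downstream gene to the stop codon of the upstream gene, both in capitals, and is shown because reads from it belong to both members of the pair.
mt-Atp8 and mt-Atp6, chrM:7927-7969: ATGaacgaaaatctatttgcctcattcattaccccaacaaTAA
mt-Nd4l and mt-Nd4, chrM:10167-10173: ATGcTAA
The ends of mt-Nd5 (chrM:11742-13565) and mt-Nd6 (chrM:13552-14070) overlap by 14 bases on opposite strands, and the sources used here do not say whether reads were counted by strand. Of all 31-base words, 7.47% of those of mt-Atp8 and 2% of those of mt-Atp6 occurred in another gene, and none of those of the other 11 mitochondrial genes did.

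The annotated ends of 3 mitochondrial genes hold only the first base of a stop codon, given in capitals after the last full codons. In the cell the added poly(A) tail completes such a codon.
mt-Co3: gatgaggatctT
mt-Cytb: aattatatccaT
mt-Nd4: gcctgacaataT
By contrast, mt-Co1 has a complete stop codon: aaagtaaaaTAA

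Levels can be compared between genes as TPM, transcripts scaled to a common total and corrected for effective length. Averaged over the 14 libraries, mt-Atp6, a subunit of the proton channel of ATP synthase, stood at 31801 TPM. It was followed by the 3 catalytic core subunits of cytochrome c oxidase, mt-Co2 (30390 TPM), mt-Co1 (28856 TPM) and mt-Co3 (24086 TPM). The lowest were mt-Nd6 (5942 TPM) and mt-Nd5 (3667 TPM), both of complex I. The level of mt-Atp8 (22285 TPM) is uncertain because its 204-base transcript had effective lengths of only 42.3 to 45.1 bases in the deposited tables, and mt-Nd4l had 110.6 to 115.7. By mean TPM every mitochondrial gene stood above the most abundant nuclear member, Cox8a, a small subunit of complex IV (1231 TPM).

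After Cox8a the most abundant nuclear members were Cox4i1, a regulatory subunit of complex IV (1032.5 TPM), and Atp5b, the catalytic beta subunit of ATP synthase (970.1 TPM). The leading nuclear members of the other complexes were Ndufa4 (750.4 TPM), Uqcr10 of complex III (471.2 TPM) and Sdha, the flavoprotein of complex II (228.5 TPM). In control tissue Cox8a and Cox4i1 averaged 1286 ± 274 and 999 ± 206 TPM (SD, n = 7 each). Both were measured in the same libraries, so these SDs do not measure the spread of their difference, which was not tested.

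Transcripts of all 13 mitochondrial genes were higher in dissociated than in control tissue, by 0.83 to 1.23 on the log2 scale, and none of the nuclear members passed the test. Over the 13063 genes tested, 0.727% passed as higher and 0.0459% as lower at an adjusted p under 0.05 (edgeR quasi-likelihood test, additive for region and treatment, Benjamini-Hochberg adjustment). The median log2 fold change was 1.02 for the mitochondrial genes, 0.00 for the 76 nuclear members tested and -0.11 for all genes. Among the nuclear members 38 had positive and 38 negative values, and 1 had an unadjusted p under 0.05 (12.4% of all genes did). DESeq2 called none of them either. Another 8 nuclear members did not pass the filter on low counts.

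**Figure D1:**
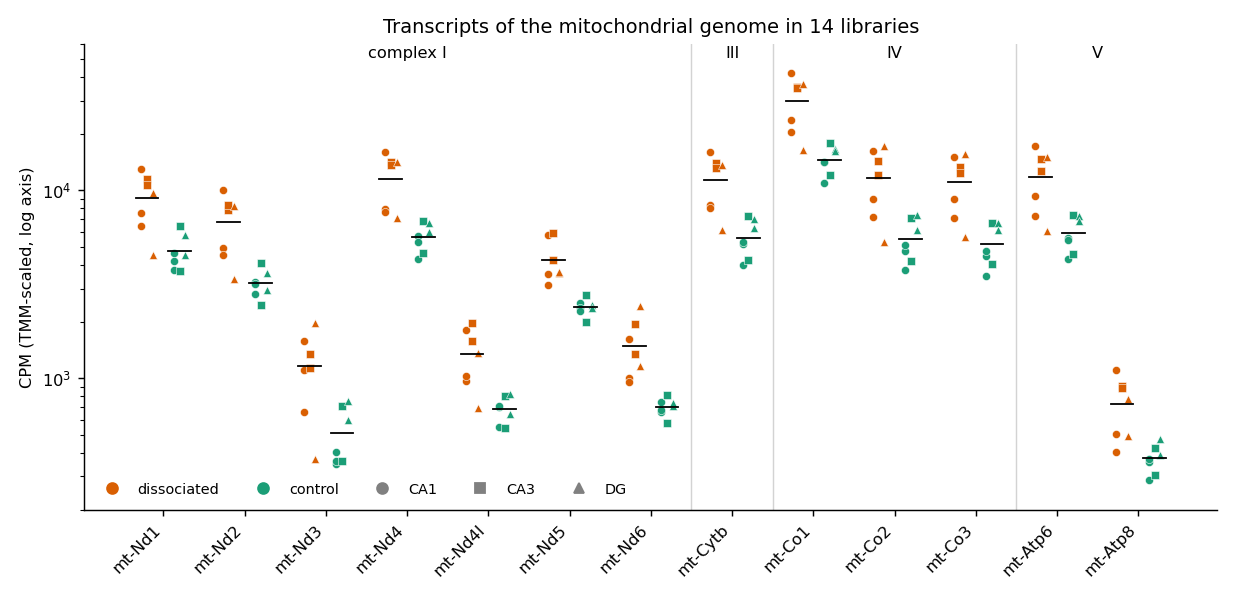
Counts of the 13 mitochondrial genes scaled to library size (CPM, log axis), with dissociated libraries (orange) left of control libraries (green) for each gene. Circles are CA1, squares CA3 and triangles DG, and black bars are means of 7 libraries. Every mean is higher in dissociated tissue, and the lowest orange triangle of most genes, DG replicate 4, lies among the control points.

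mt-Co1, the catalytic subunit of cytochrome c oxidase, had the most counts. It reached 41860, 23720 and 20319 CPM in dissociated CA1, 35291 and 34916 CPM in dissociated CA3, and 36596 and 16468 CPM in dissociated DG, against 14143, 14166 and 10913 CPM in control CA1, 12038 and 17803 CPM in control CA3, and 16602 and 16073 CPM in control DG. All dissociated libraries of CA1 and CA3 lay above all 7 controls, and DG replicate 4 lay within the control range. The log2 fold change was 1.04 ± 0.20 (SE, edgeR adjusted p = 0.0161). The other core subunits of complex IV gave 1.10 ± 0.24 for mt-Co2 (edgeR adjusted p = 0.0248) and 1.12 ± 0.22 for mt-Co3 (edgeR adjusted p = 0.017).

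Among the 7 mitochondrial subunits of complex I, which form part of its proton-pumping membrane arm, mt-Nd6 had the smallest p. It had 1613, 1002.5 and 958 CPM in dissociated CA1, 1351 and 1943 CPM in dissociated CA3, and 2413 and 1161 CPM in dissociated DG, against 745, 657 and 678 CPM in control CA1, 576 and 815 CPM in control CA3, and 715 and 735 CPM in control DG. Its dissociated and control libraries did not overlap, within any region or over all 14, and its log2 fold change was 1.06 ± 0.20 (SE, edgeR adjusted p = 0.0136). mt-Nd5 had a smaller fold change of 0.83 ± 0.18 (edgeR adjusted p = 0.0228), and its libraries did not overlap either, at 3117 to 5923 CPM in dissociated and 1985 to 2761 CPM in control tissue.

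mt-Nd3 had the highest fold change and the widest error, 1.23 ± 0.29 (SE, edgeR adjusted p = 0.0388). Its dissociated libraries ran from 369 CPM in DG replicate 4 to 1961 CPM in DG replicate 3, with a median of 1132 CPM, against 349 to 759.5 CPM and a median of 407 CPM in control tissue. The 2 ends of the dissociated range thus came from the same region. mt-Nd1, mt-Nd2, mt-Nd4 and mt-Nd4l had log2 fold changes of 0.92 to 1.07 with edgeR adjusted p between 0.017 and 0.038.

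mt-Cytb, the cytochrome b of complex III and its only mitochondrial subunit, was higher by 1.02 ± 0.22 (SE, edgeR adjusted p = 0.0208). It averaged 11330 ± 3720 CPM in dissociated and 5602 ± 1283 CPM in control libraries (SD, n = 7 each). For the mitochondrial subunits of ATP synthase, mt-Atp6 averaged 11746 ± 4232 CPM in dissociated and 5914 ± 1262 CPM in control libraries, a log2 fold change of 1.00 ± 0.22 (edgeR adjusted p = 0.0309). mt-Atp8 averaged 726 ± 263 CPM in dissociated and 374.5 ± 66.1 CPM in control libraries, a log2 fold change of 0.96 ± 0.22 (edgeR adjusted p = 0.0426). The sizes were alike over the genome: across the 13 genes the fold change had a Spearman rho of -0.14 with transcript length and 0.10 with mean CPM, given as a description.

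The makeup of the mitochondrial RNA itself differed little between preparations. mt-Co1 took 26.8 ± 0.461% of mitochondrial counts in dissociated and 26.5 ± 0.907% in control libraries, and mt-Nd5 took 4.05 ± 1.14% in dissociated and 4.43 ± 0.622% in control libraries (SD, n = 7 each). The mitochondrial genes together took 14.4, 9.40 and 7.60% of all counts in dissociated CA1, 13.1 and 11.7% in dissociated CA3, and 13.7 and 6.18% in dissociated DG. In control tissue they took 5.04, 5.34 and 4.08% in CA1, 4.57 and 7.07% in CA3, and 7.06 and 6.14% in DG. The shares in dissociated CA1 and CA3 lay above all controls, and that of DG replicate 4 lay inside the control range. The nuclear members together took 0.781 ± 0.167% in dissociated and 0.802 ± 0.166% in control libraries (SD, n = 7 each).

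How many of the 13 mitochondrial genes passed the test depended on single libraries. It was 5, 2 and 1 without CA1 control replicates 1, 2 and 3, 4 and 7 without CA3 control replicates 1 and 4, and 6 without DG control replicate 3. It was 6 and 7 without CA1 dissociated replicates 1 and 2, 7 and 2 without CA3 dissociated replicates 1 and 4, and 2 without DG dissociated replicate 3. Leaving out each remaining library kept all 13. Over these 14 fits the median log2 fold change of the mitochondrial genes stayed between 0.88 and 1.14, mt-Nd6 was called in 13 fits and mt-Co1 in 12. Without the 3 shallow dissociated libraries the median was 1.12, and mt-Nd5 (1.05, edgeR adjusted p = 0.0302) and mt-Nd6 (1.11, edgeR adjusted p = 0.0228) were the 2 genes called, beside 0.102% of all genes. Without the 3 libraries whose markers go against their region the median was 1.03 and 1 mitochondrial gene was called, mt-Nd6 (1.14, edgeR adjusted p = 0.0356), beside 0.225% of all genes. The other 12 then had edgeR adjusted p of 0.0589 to 0.117. In the fits that left out a single library, 0.273 to 1.46% of all genes were called higher.

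Markers of some cell types moved with the preparation. Over all genes 0.727% were called higher and 0.0459% lower, with a median log2 fold change of -0.11. Of 15 oligodendrocyte markers 10 were called higher in dissociated tissue (median log2 fold change 1.93), and their summed level was 1575 to 13561 CPM in dissociated and 671 to 4088 CPM in control libraries. Of 15 microglial markers 10 were called higher (median 1.74), with sums of 709 to 2837 CPM in dissociated and 357 to 615 CPM in control libraries. No astrocyte marker (0 of 10, median 0.73) or excitatory neuron marker (0 of 10, median -0.40) was called, and the summed level of the neuronal markers was 5152 to 13817 CPM in dissociated and 9044 to 13306 CPM in control libraries. Nor was any marker of red blood cells (median 1.13), endothelial cells (0.45), interneurons (-0.54) or choroid plexus and ependyma (-0.28). The part of these shifts in the mitochondrial result was not tested, and in such bulk samples a change in the cells present and a change in RNA per cell cannot be told apart.

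The nuclear members were next taken complex by complex, with the mitochondrial subunits of the same complex beside them. In complex I the 36 nuclear members tested had a median log2 fold change of -0.03, against 1.02 for the 7 mitochondrial ones. Its 7 nuclear core subunits, which hold the flavin and the iron-sulfur clusters, had a median of -0.30 with 1 positive value, and the 29 other members had a median of 0.04 with 16 positive. The extremes were Ndufb9, an accessory subunit (0.51 ± 0.35, edgeR adjusted p = 0.579), and Ndufv2, an iron-sulfur core subunit (-0.37 ± 0.26, edgeR adjusted p = 0.589). Complex II, which has no mitochondrial subunit, had a median of -0.11 over its 4 members, from -0.28 for the iron-sulfur subunit Sdhb to -0.04 for Sdha. Sdha had 0.07 under another scaling of the libraries (RLE).

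In complex III the median was 0.03 over 8 nuclear members, against 1.02 for mt-Cytb. Uqcrfs1, the Rieske iron-sulfur protein, had 0.19 ± 0.21 (edgeR adjusted p = 0.748), and Uqcrc1, a core protein, had -0.17. Complex IV had the highest nuclear median, 0.16 over 11 members of which 9 were positive, against 1.10 for its 3 mitochondrial subunits. Cox5b had 0.45 ± 0.26 (edgeR adjusted p = 0.493) and Cox7b -0.22 ± 0.25 (edgeR adjusted p = 0.755).

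In complex V the median was -0.03 over 17 nuclear members, against 0.98 for mt-Atp6 and mt-Atp8. Atp5e, the epsilon subunit, had the highest value of all nuclear members. It had 93.1, 88.7 and 79.0 CPM in dissociated CA1, 76.3 and 69.5 CPM in dissociated CA3, and 109.0 and 57.7 CPM in dissociated DG, against 39.7, 53.4 and 33.9 CPM in control CA1, 34.4 and 75.2 CPM in control CA3, and 79.0 and 72.0 CPM in control DG. The groups overlapped through CA3 and DG, and the log2 fold change was 0.58 ± 0.26 (SE, edgeR adjusted p = 0.369). Atp5b averaged 897 ± 152 CPM in dissociated and 891 ± 93 CPM in control libraries (SD, n = 7 each), and Atp5a1, the alpha subunit, averaged 654 ± 96.5 CPM in dissociated and 713 ± 91.0 CPM in control libraries. Atp5s, a coupling factor of the synthase, had -0.48 ± 0.62 (edgeR adjusted p = 0.801).

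**Figure D2:**
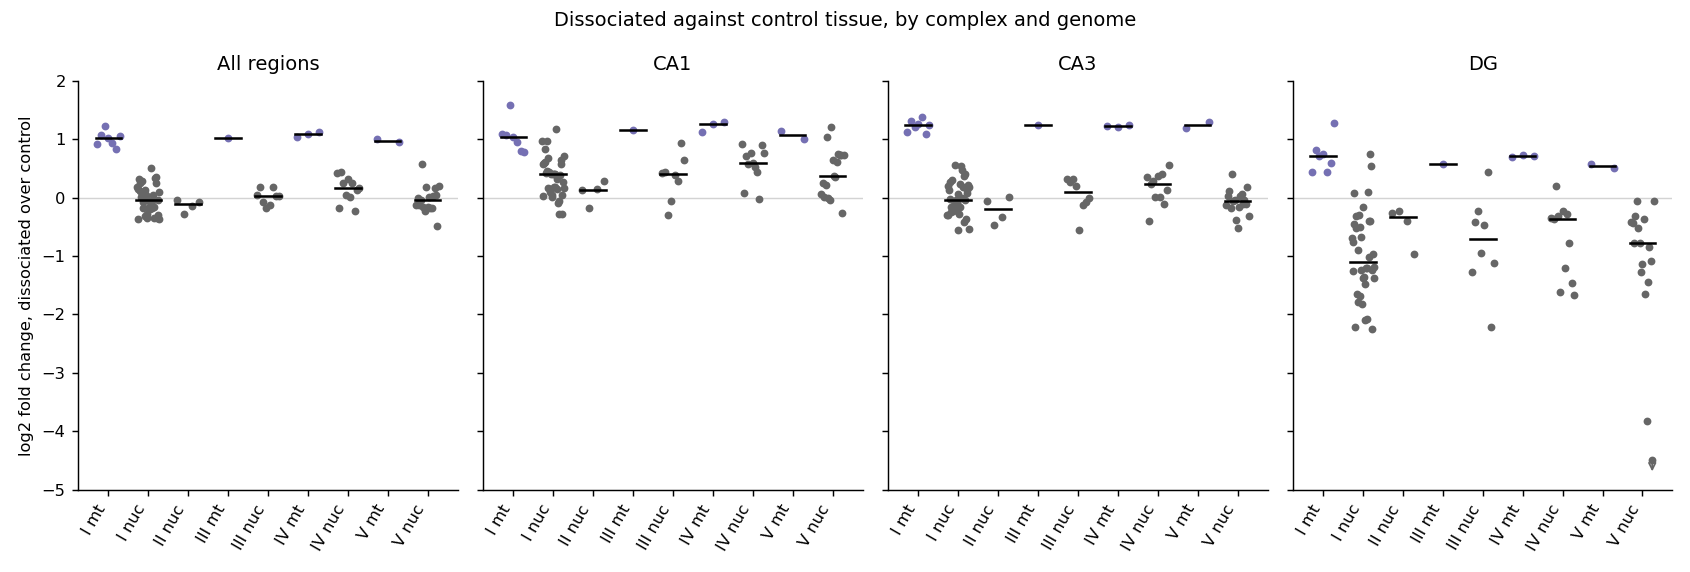
Log2 fold change of dissociated over control tissue for each tested member, by complex, with mitochondrial genes (mt, purple) left of nuclear genes (nuc, grey). The first panel is the additive fit over all regions and the others are the fits within CA1, CA3 and DG. Bars are medians, and the arrow in the DG panel marks Atp5s, which had no counts in both dissociated DG libraries. Nuclear medians are near 0 over all regions, above 0 in CA1 and below 0 in DG.

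Because the pooled estimate hides the regions, the preparations were also compared within each one. In CA1 no member was called (0.191% of all genes were), although all 13 mitochondrial genes had an unadjusted p under 0.05 (11.2% of all genes did) and a median log2 fold change of 1.10. The nuclear median there was 0.41, with 66 of 76 members positive, against -0.06 for all genes. Dissociated libraries lay above control libraries without overlap for 13 of 13 mitochondrial and 15 of 76 nuclear members in CA1, against 7.17% of all genes, and below them for none of the 89 (16.0% of all genes). The nuclear members took 0.910, 0.972 and 0.780% of counts in dissociated CA1, against 0.623, 0.773 and 0.669% in control CA1. CA1 dissociated replicate 1 carried much of both values: without it the mitochondrial median was 0.68 and the nuclear one 0.17, with 47 of 76 positive. Without the 3 shallow libraries the mitochondrial median was 1.74, from 1 remaining dissociated CA1 library whose spread is taken from the other groups. Without the libraries whose markers go against their region the medians were 1.31 and 0.54.

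Transcript length moved with the nuclear values of CA1. Each dissociated library was set against the mean of its regional controls, and the log2 ratio compared with the longest transcript of each gene, as a description across genes. In CA1 dissociated replicate 1, where the median nuclear ratio was 0.56, Spearman rho with length was -0.57 over the 76 nuclear members and -0.48 over the 7669 genes that averaged 20 CPM or more. It was -0.18 and -0.29 in replicate 2, with a median ratio of 0.37, and -0.12 and -0.14 in replicate 3, with a median ratio of 0.02. In DG replicate 4, where the nuclear members were low, it was 0.19 over them and 0.29 over all 7669 genes. In CA3 rho was -0.31 and -0.25 in replicate 1, with a median ratio of 0.05, and -0.02 and -0.01 in replicate 4, with -0.08. In DG replicate 3 rho was -0.03 and -0.07, with a median ratio of -0.60. Shorter transcripts thus stood relatively higher in dissociated CA1 and in CA3 replicate 1, and lower in DG replicate 4. The length trend did not follow the nuclear median in every library. The part of length in the nuclear values was not tested.

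Among the nuclear members of complex IV, Cox4i1 had the highest fold change within CA1, above the nuclear median of 0.41. It had 483.5, 429.7 and 329.1 CPM in dissociated CA1, against 200.2, 251.5 and 204.5 CPM in control CA1. All 3 dissociated values lay above the controls, with a log2 fold change of 0.92 ± 0.32 (SE, edgeR adjusted p = 0.291). In DG its values were 358.0 and 166.5 CPM in dissociated tissue, against 312.9 and 294.1 CPM in control tissue, so that the dissociated libraries lay on either side of the controls. Of its 31-base words 12.5% also occur in Emc8 transcripts.

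In CA3 no member was called, and neither was any other gene (0.0%). The 13 mitochondrial genes again had unadjusted p-values under 0.05 (4.0% of all genes did), with a median log2 fold change of 1.24, and their 2 dissociated libraries lay above both controls for 13 of 13, against 15.7% of all genes. Sdha, Sdhc and Uqcrc2 were the 3 members with both dissociated libraries below both controls, against 18.2% of all genes. The nuclear median was -0.02, with 37 of 76 positive. Without the libraries whose markers go against their region, which leaves 1 library of each preparation, the mitochondrial median was 0.99 and the nuclear one -0.38 with 12 of 76 positive. The nuclear median depended on which control was used, at -0.27 without CA3 control replicate 1 and 0.43 without CA3 control replicate 4. Replicate 4 had the highest nuclear share of all libraries, 1.09% of counts, against 0.713% in CA3 control replicate 1.

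In DG the nuclear members stood lower in dissociated tissue. Their median log2 fold change was -0.81, with 6 of 76 positive, against -0.27 for all genes, and 24 had an unadjusted p under 0.05 (14.1% of all genes did). The distance from all genes rested on replicate 4. Without DG dissociated replicate 4 the nuclear median was -0.60, above the -1.28 of all genes. Set against the DG controls, the nuclear and all-gene medians of the log2 ratio were -0.60 and -0.62 in replicate 3, and -0.94 and -0.13 in replicate 4. For 46 of 76 both dissociated libraries lay below both controls, against 32.2% of all genes. Among these 46, Atp5b, Atp5g3, Atp5o, Cox7c, Ndufb6, Uqcr10 and Uqcrh had the opposite order without overlap in CA1, 7 of 76 members beside 1.7% of all genes. These 7 were picked by the same values. In DG dissociated replicate 3 they had, in this order, only 44, 3, 0, 0, 1, 2 and 3 counts. Complex I had the lowest nuclear median (-1.10), followed by complex V (-0.78), III (-0.70), IV (-0.36) and II (-0.33). The nuclear share of counts was 0.615 and 0.516% in dissociated DG, against 0.956 and 0.791% in control DG. Interneuron markers also had a low median in DG, -2.70 over 8 genes, and the 2 dissociated DG libraries held 65887 and 598775 counts. The part of either in the nuclear values was not tested.

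Atp5j2 (chr5:145183698-145192062, - strand), the f subunit of ATP synthase, was the only member called within a region, where 0.122% of all genes were called lower in DG. It had 0 and 4.95 CPM in dissociated DG, from 0 and 3 counts, against 64.3 and 61.6 CPM in control DG, from 88 and 386 counts. Replicate 4 lay far below the controls. The 0 came from replicate 3, where the tested nuclear members had a median of only 4 counts. The fitted log2 fold change was -3.83 ± 0.76 (SE, edgeR adjusted p = 0.0426). In the other regions it had 90.2, 115.9 and 55.9 CPM in dissociated CA1, against 61.1, 53.7 and 51.8 CPM in control CA1. In CA3 it had 52.9 and 68.6 CPM in dissociated tissue, against 40.2 and 75.2 CPM in control tissue. The call was lost in 7 of 14 fits that left out a library, and the interaction with region was not called (edgeR adjusted p = 0.207).

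Cox8a followed the same order, with 62.3 and 77.5 CPM in dissociated DG, against 269.0 and 198.9 CPM in control DG. Its fitted value within DG was -1.67 ± 0.53 (SE, edgeR adjusted p = 0.169). In CA3 it had 404.6 and 368.0 CPM in dissociated tissue, against 186.8 and 336.2 CPM in control tissue, the reverse direction without overlap.

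The mitochondrial genes of DG had a median log2 fold change of 0.70, from 0.45 to 1.28, and only 4 of 13 (mt-Atp8, mt-Nd4, mt-Nd5 and mt-Nd6) had both dissociated libraries above both controls, against 8.25% of all genes. These 4 genes were also the members above without overlap in all 3 regions (0.597% of all genes), and no member was below in all 3 (1.34% of all genes). The 2 dissociated DG libraries disagreed: against the DG controls the median log2 ratio of the 13 genes was 1.16 in replicate 3 and -0.09 in replicate 4. Without DG dissociated replicate 3, which is the shallowest library, the fitted median was -0.11 with 5 of 13 positive, and without DG dissociated replicate 4 it was 1.16, each from 1 dissociated library. In replicate 4 the single genes ranged from -0.88 for mt-Nd3, at 369 CPM against 759.5 and 602.4 CPM in the controls, to 0.68.

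Whether the response differed between regions was tested by the interaction of treatment with region. No member was called, nor was any other gene (0.0%). Without adjustment 16 nuclear and 0 mitochondrial members had p under 0.05, beside 8.51% of all genes. The smallest edgeR adjusted p was 0.207 among all members and 0.772 among the mitochondrial ones.

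**Figure D3:**
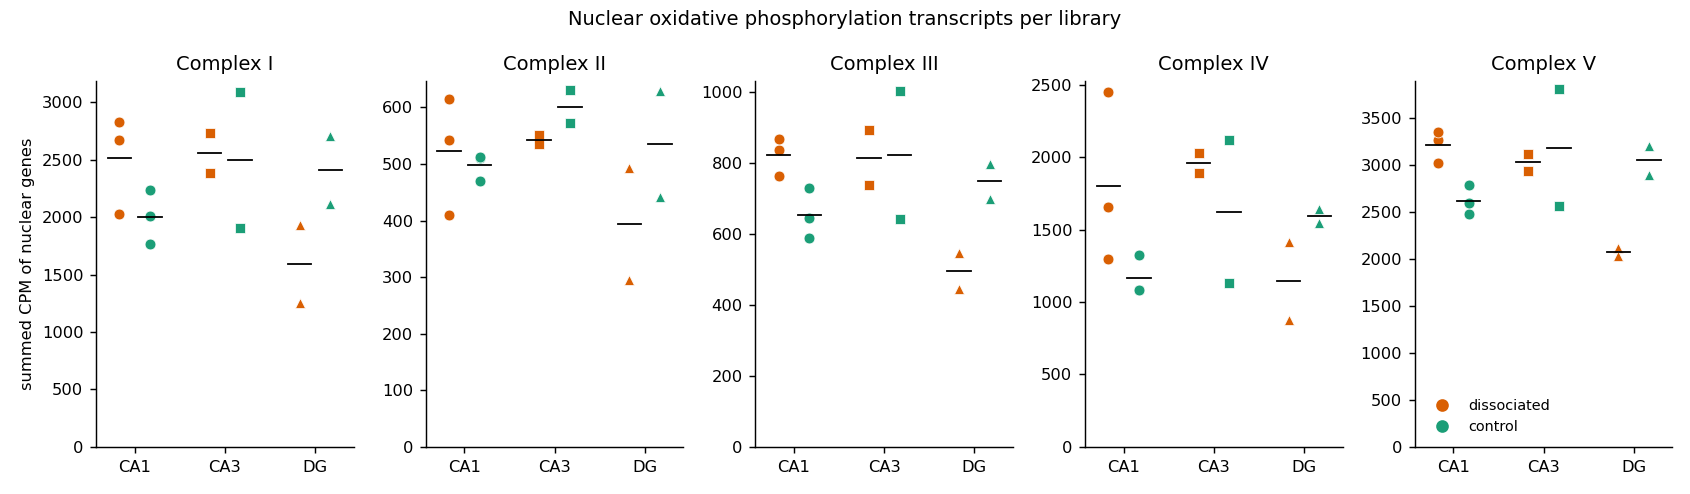
Summed CPM of the nuclear members of each complex in every library, by region, with dissociated libraries (orange) left of control libraries (green) and bars for the means of 2 or 3 libraries. In complexes III and V the dissociated libraries lie above the controls in CA1 and below them in DG.

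The ratio of summed TPM of mitochondrial to nuclear members does not depend on how libraries are scaled to each other. Over all complexes it was 14.7, 8.99 and 9.41 in dissociated CA1, 13.8 and 15.0 in dissociated CA3, and 21.8 and 13.2 in dissociated DG. In control tissue it was 8.65, 7.22 and 6.52 in CA1, 6.92 and 6.31 in CA3, and 7.71 and 7.81 in DG. Every dissociated library lay above all 7 controls, DG replicate 4 included. The 2 lowest dissociated values belonged to the shallow CA1 libraries, and the 4 deeper dissociated libraries lay between 13.2 and 15.0. No p-value is given, because the genes were chosen with earlier results of these data known.

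By complex, the ratio was 17.3 ± 4.75 in dissociated and 9.78 ± 1.17 in control libraries for complex IV, and 9.42 ± 3.50 in dissociated and 4.76 ± 0.493 in control libraries for complex III (SD, n = 7 each). Neither overlapped between preparations. For complex I it was 14.4 ± 3.97 in dissociated and 7.53 ± 0.925 in control libraries, and for complex V 12.5 ± 4.54 in dissociated and 6.38 ± 0.747 in control libraries (SD, n = 7 each). In both of these the shallow CA1 libraries overlapped CA1 control replicate 1, at 8.87 against 9.40 for complex I, and at 7.03 and 6.73 against 7.41 for complex V. The part of depth in these values was not tested.

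**Figure D4:**
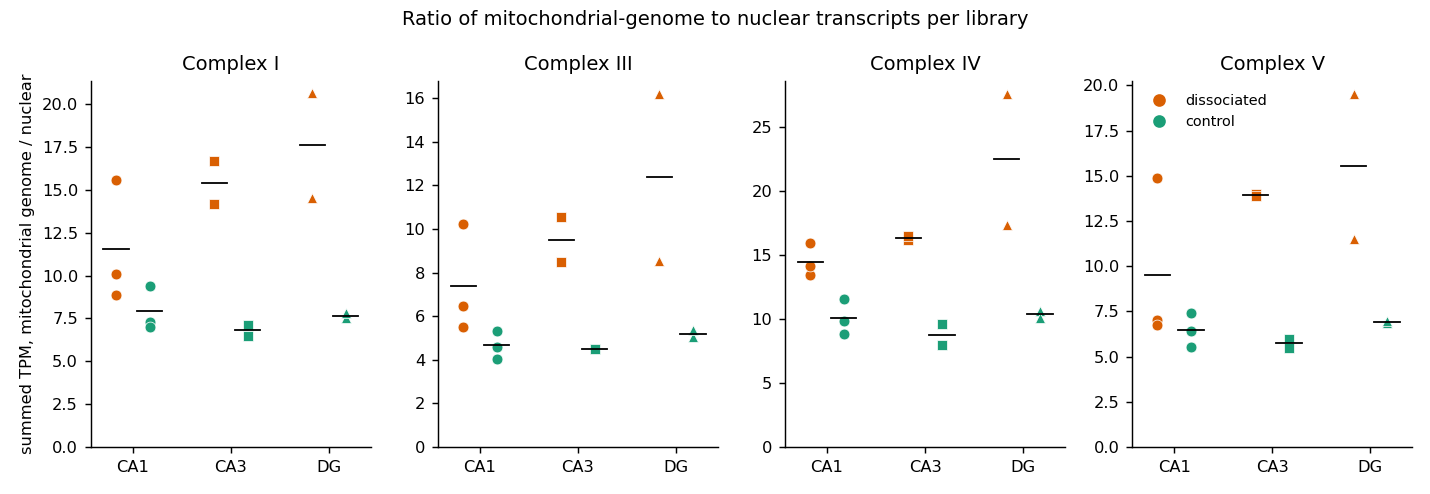
Ratio of summed TPM of mitochondrial over nuclear members in each library, for the 4 complexes with subunits from both genomes. Dissociated libraries (orange) stand left of control libraries (green) in each region, and bars are means of 2 or 3 libraries. Dissociated values lie above control values in CA3 and DG for each complex, and the 2 overlap in CA1 for complexes I and V.

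Levels also were compared between regions in the additive model. No member differed between regions at an adjusted p under 0.05, although 4.06% of all genes were called in CA1 over DG, 1.78% in CA3 over DG and 0.115% in CA1 over CA3. Unadjusted p-values under 0.05 were seen for 2, 4 and 0 members in these contrasts, against 15.7, 12 and 5.37% of all genes, and DESeq2 called no member in any of them. The mitochondrial genes had median log2 fold changes of -0.17, 0.12 and -0.28 in these contrasts, and the nuclear members 0.11, 0.32 and -0.14. The smallest p in CA1 over DG belonged to Ndufa5, an accessory subunit of complex I (1.05 ± 0.39, edgeR adjusted p = 0.162), and Ndufs4, another (-0.84 ± 0.36, edgeR adjusted p = 0.251). Ndufv1 (0.53), Ndufs8 (0.73) and Ndufa10 (0.49) came next. In dissociated DG Ndufa5 had 0 and 13.2 CPM, from 0 and 8 counts, against 36.6 and 34.3 CPM in control DG. Its mean in control CA1 was 49.0 CPM. In dissociated DG replicate 3 Ndufs4 had 140.1 CPM, from 9 counts. It had 49.5 CPM in replicate 4, and 43.9 and 47.6 CPM in control DG. The part of these few counts in the fitted values was not tested. Without the libraries whose markers go against their region no member was called in these contrasts either.

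In CA3 over DG, Ndufa10 had 0.77 ± 0.33 (edgeR adjusted p = 0.313) and Uqcrc1 0.79 ± 0.34 (edgeR adjusted p = 0.323), followed by Ndufa9 (0.85), Cox8a (0.91) and Ndufs8 (0.83). Both dissociated DG libraries stood low for Ndufa10, but only replicate 4 did for Uqcrc1. Uqcrc1 had 202.4 CPM in dissociated DG replicate 3 and 46.2 CPM in replicate 4, against 193.0 and 164.4 CPM in control DG. Ndufa10 averaged 46.4 CPM in dissociated DG and 110.9 CPM in control DG, and in CA3 it averaged 124.1 CPM in dissociated and 152.0 CPM in control tissue. In the 7 control libraries alone the CA3 over DG values were 0.51 for Ndufa10 and 0.40 for Uqcrc1. In CA1 over CA3 the smallest p-values belonged to Cox6a1 (-0.56), Cox7b (-0.47), Ndufs7 (-0.58), Cox7a2 (-0.52) and Uqcrc1 (-0.43), with edgeR adjusted p of 0.98 to 1.0.

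The 8 members with too few counts were 7 alternative subunits of complex IV, mainly known from muscle, lung or testis, and Ndufa4l2, a relative of Ndufa4 known from hypoxic cells. Summed over 7 libraries each, Ndufa4l2 had 2 counts in dissociated and 34 in control tissue, and Cox4i2, the alternative form of Cox4i1, had 0 in dissociated and 16 in control tissue. In dissociated tissue Cox6a2 had 20 counts, Cox6b2 10, Cox7a1 4 and Cox7b2, Cox8b and Cox8c 0, against 27 for Cox6a2, 10 for Cox6b2, 9 for Cox7a1, 6 for Cox7b2, 1 for Cox8b and 0 for Cox8c in control tissue. A count of 0 allows up to 0.313 CPM in the pooled dissociated and 0.131 CPM in the pooled control libraries, for counting error only. Their common forms Cox4i1, Cox6a1, Cox6b1, Cox7a2 and Cox8a were all tested.

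Other genes of the pathway, taken as lists, held no called gene in the treatment comparison. Proteins that assemble the complexes (45 tested) had a median log2 fold change of -0.17, with 18 positive. The highest was Tmem70, which helps assemble ATP synthase (0.81 ± 0.29, edgeR adjusted p = 0.246), and the lowest Ndufaf4 of complex I assembly (-1.27 ± 0.52, edgeR adjusted p = 0.316). Genes that maintain and express mitochondrial DNA (26 tested) had a median of 0.01, from Hsd17b10 (0.61) to Trmt10c (-2.48 ± 0.78, edgeR adjusted p = 0.167), both subunits of the mitochondrial RNase P, which cuts tRNAs from the precursor. Trmt10c averaged only 1.75 ± 2.90 CPM in dissociated and 8.99 ± 3.81 CPM in control libraries (SD). It reached the mean of 5 CPM required for naming only through control tissue, so its fold change is uncertain.

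The mitochondrial ribosome (77 tested) had a median of -0.13 with 27 positive, from Mrps18b (0.86) to Mrpl21 (-0.89). The tricarboxylic acid cycle and pyruvate dehydrogenase (21 tested) had -0.20 with 5 positive, from Pdk4 (0.78) to Pdhx (-0.60). Import, carriers and channels (29 tested) had -0.19 with 3 positive, from Timm22 (0.28) to Timm10 (-1.05). Mrpl21 and Timm10 averaged only 4.14 and 4.19 CPM in dissociated libraries, against 11.2 and 10.2 CPM in control libraries. Nuclear regulators of mitochondrial genes (10 tested) had -0.29, from Nfe2l2 (0.61) to Esrrg (-1.08). The 6 subunits and partners whose symbols fall outside the name patterns had -0.20, from Atpif1, the inhibitor of ATP synthase (0.49), to Ndufab1 (-0.23). All of these medians stood between -0.29 and 0.01, beside -0.11 for all genes.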

How the data were processed

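RNA of 14 libraries was measured by sequencing. The submitters' processing notes name FastQC, cutadapt, kallisto and DESeq2 but give no versions. Their genome build, annotation and strandedness were not given in the sources used here. Deposited by the authors were transcript tables with estimated counts, TPM and effective lengths, per the file headers, and a gene table of estimated counts, each within 0.5 of the summed transcript estimates. TPM were summed by gene. Of 58716 transcripts, 53308 matched GENCODE M21 (GRCm38) in identifier, version and length, and coordinates and sequences are from M21.

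Members, gene lists and tests were chosen with earlier results of these data known. Counts were scaled by TMM and tested with edgeR 4.0.16 (R 4.3.3) after filterByExpr (minimum count 10, minimum total 15), which kept 13063 genes and 89 of 97 members. Region and treatment were additive (10 residual degrees of freedom), and within-region effects and the interaction came from 6 group means (8 residual degrees of freedom). Genes were called at a Benjamini-Hochberg adjusted p under 0.05. Standard errors were derived from the F statistic. The tests were also run on simulated counts that gave every gene the same spread parameter and no regional difference. Real counts differ in both, so that run cannot vouch for the calls made here. All sequence words were compared for the 83 members whose transcripts matched. Of these 16 shared at least 5% of their words with another gene, so kallisto may have divided their reads.

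Named were all mitochondrial genes, called members, the highest and lowest treatment fold change (mean of at least 5 CPM) and the 2 most abundant members per complex, untested members, isoform pairs, the 5 smallest p per region contrast and the extremes of each pathway list. Members in lists of non-overlap were chosen after their values were seen. Alternatives were RLE and upper-quartile scaling, library sizes without mitochondrial genes, no filter, DESeq2 1.42.0, limma 3.58.1 on log2(TPM + 1), the mean of within-region effects, a replicate block, control libraries alone, and leaving out libraries. Leaving out the 3 libraries whose markers go against their region was added after seeing the data. Where a fit leaves 1 library in an arm, that library is assumed to vary like the other groups. Limits from counts of 0 cover counting error only, since no molecular identifiers are described. All libraries share 1 sequencing job and date in the authors' table, so no batch could be separated.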

Additional observations from a re-analysis of the deposited data

Results flagged for a closer look

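In dissociated DG replicate 3, the shallowest library, the complex IV ratio of mitochondrial to nuclear TPM was 27.6, far above the other 6 dissociated libraries. In control tissue Uqcrc1 stood at 285.5 CPM in CA3 replicate 4, far above the other 6 controls. These were 2 of 58 groups of 7 examined, and chance marks about 1 in 20.

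The nuclear members stood above the controls in CA1 and below them in DG, in every dissociated library of each, and the difference between the regions was not tested for these sums. Their share of counts was 1.29 times the control mean in dissociated CA1 and 0.647 times in dissociated DG. For summed CPM the ratios of dissociated over control were 1.28 in CA1 and 0.683 in DG. Those of complex III were 1.26 in CA1 and 0.662 in DG, and those of complex V 1.23 in CA1 and 0.68 in DG. Tested gene by gene, the interaction called no member.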

How the results depend on the processing

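All 13 mitochondrial genes stayed called under RLE and upper-quartile scaling, library sizes without mitochondrial genes, no filter, DESeq2 and a replicate block, and no nuclear member was called for treatment under any alternative. The mean of within-region effects called 9 mitochondrial genes, limma on log2(TPM + 1) called 0, the fit without the 3 shallow libraries 2 and that without the 3 libraries whose markers go against their region, chosen after seeing the data, 1. By leaving out single libraries the number was 1 to 13. The share of all genes called higher for treatment also varied. It was 1.18% under RLE, 0.796% under upper-quartile scaling and 0.75% with library sizes without mitochondrial genes. It was 1.58% without the filter, 3.28% by DESeq2, 1.65% with the block, 0.658% for the mean of within-region effects and 0.0536% by limma. The limma fit moved the nuclear median to -0.47, with mitochondrial and all-gene medians of 0.63 and -0.64. RLE scaling moved the median of all genes from -0.11 to -0.01 and made 47 rather than 38 of 76 nuclear values positive. Deviations of same-numbered libraries from their group means had correlations of 0.017 to 0.054 in CA1, 0.124 in CA3 and -0.227 in DG. In CA3 and DG, with 2 libraries per group, the deviations mirror each other. Whether the numbers pair the samples was therefore not settled. A replicate block gave medians of 1.13 and 0.15 for mitochondrial and nuclear members, with 13 and 0 called.

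Within CA1, 9 members were called without the filter and 7 by DESeq2, all mitochondrial, and 0 to 1 by leaving out libraries. Within CA3, 5 mitochondrial genes were called without the filter. Within DG the counts were 0 under RLE, 2 without the filter, 2 by DESeq2, 8 by limma and 9 without the shallow libraries, from 1 remaining dissociated DG library that is assumed to vary like the other groups, and 0 to 2 by leaving out libraries. In the interaction, 2 were called without the filter and 1 by DESeq2. The shares of all genes called under these alternatives, within regions and in the interaction, were not obtained, so these counts have no background. In CA3 over DG, 0 to 1 were called by leaving out libraries (Ndufa10, without DG control replicate 2). Among pathway genes, DESeq2 called 3, among them Tmem70 (0.90) and Trmt10c (-2.33), and limma 1 (Slc25a12 -1.33). The mt-Co1 ratio of dissociated over control means was 1.59 in TPM and 2.06 in CPM. The cause of these shifts was not tested.

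Values near 0 changed sign. Sdha had 0.07 under RLE, 0.00 under upper-quartile scaling, 0.09 by DESeq2, 0.01 without the shallow libraries and -0.13 to 0.05 by leaving out libraries. Uqcrc1 had 0.10 under the block and -0.28 to 0.06 by leaving out libraries. Uqcrfs1 had -0.13 and Pdk4 -0.25 by limma. Ndufab1 had 0.14 and Timm22 -0.15 without the shallow libraries, and -0.81 to 0.09 and -0.01 to 0.52 by leaving out libraries. Timm22 had -0.19 without the libraries whose markers go against their region and -0.03 as the mean of within-region effects.

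Depth limits the nuclear members most: in the shallowest library 66 of the 76 had a count.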
